A study of Mus musculus with 21 samples.

Results

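The mitochondrial ribosome is the particle that makes the proteins encoded by the mitochondrial genome, all of them core subunits of the respiratory chain and of ATP synthase. Its ribosomal RNAs are transcribed inside the mitochondrion, whereas every one of its proteins is encoded in the nucleus, made in the cytosol and imported. Part of these proteins descend from the ribosome of the bacterial ancestor, and the others were gained later and have no counterpart in bacteria. Spermatocytes entering meiosis depend on mitochondrial respiration, and in the seminiferous epithelium they are fed with lactate by Sertoli cells.

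The mitochondrial ribosomal protein genes were taken from the RNA-seq table of B6 germ cells by symbol, as all genes named Mrpl or Mrps followed by a number. Of 37620 genes in the table, 80 symbols fitted, and 4 of them that are named as pseudogenes were left out, which gave 76 members, 47 named Mrpl and 29 named Mrps. The 4 pseudogene symbols had mean values of 0.0708 to 0.342 FPKM (fragments per length of transcript, scaled to the size of the library). The rule used no measured value. In the study, germ cells were enriched from testes of C57BL/6J (B6) males at 12 days post-partum (dpp) by digestion with collagenase and trypsin, and the mRNA taken from their total RNA was sequenced in 12 libraries. The libraries carry 4 sample numbers (186wt, 343wt, 444wt and 456wt), and each number stands on 3 of them. All share strain, age and cell type, no treatment or mutation is given, and the sample number is the only difference the labels give. The labels do not say whether the 3 libraries of a number came from separate cells or animals. The study's methods speak of 4 replicates of germ cells, as many as there are sample numbers, and by that account the 3 libraries of a number repeat 1 replicate. Each comparison of a sample number with the others then sets 1 replicate against 3, and the p-values between sample numbers measure only the spread between repeat libraries, not that between animals or preparations. A level in a sample number is the average over its 3 libraries below, and means ± SD are over the 4 numbers.

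The cells are labelled spermatocytes, and the markers of meiotic prophase were present, with all 13 of 13 above 0 and medians of 39.6, 27.5, 45.3 and 36.3 FPKM in 186wt, 343wt, 444wt and 456wt. The 9 spermatogonial markers were all detected too. Sertoli cell markers were also high, with 9 of 10 symbols found, none at 0, a summed level between 2526 and 4498 FPKM, and Clu, a secreted glycoprotein, at 1844 FPKM. Markers of round spermatids, which do not exist at this age, summed to between 2.91 and 4.66 FPKM, with Prm2 at 0. The depth of the libraries, estimated from the steps of low FPKM values, was 12.3 to 17.2 M (mega) fragments with a median of 14.3 M. At this depth the level of Mrpl35, the lowest member, stands for about 106 fragments per kilobase of transcript in a library, a counting error of 9.70%. That of Mrps5, the highest, stands for about 1494 fragments per kilobase and 2.59%. These errors are per kilobase and not those of the genes themselves, since a longer transcript gives more fragments. The longest transcripts of members ran from 412 to 6073 bp, and that of Mrpl35 has 3715 bp.

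All 76 members are annotated as protein-coding on NCBI build 37. They lie on 17 chromosomes, with 10 on chromosome 11, 8 on chromosome 17 and 7 on chromosome 6, and none on X or Y. The longest transcript of a member had a median length of 1300.5 bp. Of the 76 genes, 15 (19.7%) start head to head with a protein-coding gene on the other strand, against 8.40% of 16577 expressed protein-coding genes. Head to head means that the 2 genes run apart from starts at most 500 bp from each other. Pairs that overlap at their starts, such as Mrpl46 and Mrps11, are not counted. Among these pairs, Mrpl49 lies 135 bp from Fau, which encodes a cytosolic ribosomal protein fused to a ubiquitin-like domain and measured 393 FPKM, and Mrps12 lies 171 bp from Sars2, the mitochondrial seryl-tRNA synthetase, at 16.5 FPKM. An exon of 26 members overlaps an exon of another gene, on the same strand in 6 and on the opposite strand in 22, and whether the counting used strand is not stated.

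Promoter sequences of RefSeq (GRCm38.p6, 250 bases before to 50 after the annotated start) were matched to 67 members by symbol. They were searched on both strands for 4 motifs of promoters. The NRF1 motif, GCGCA and GCGC with any base between them, was found in 12 (17.9%) of the 67, against 5.19% of the promoters of all 27025 genes in that table, 9.71% of 11277 expressed protein-coding genes and 15.4% of 3850 protein-coding genes in the top quartile of expression. The ETS motif CCGGAAG, the core bound by GABP and its relatives, was found in 24 (35.8%), against 9.93% of all genes and 24.8% of the top quartile. The YY1 motif AAGATGGCG was found in 8 (11.9%), against 1.64% and 4.86%. The TATA box TATAAA was found in 5 (7.46%), against 15.7% and 7.95%. The last 3 letters of the ETS motif are the first 3 of the YY1 motif, so that 1 stretch can hold both. In all, 39 of the 67 promoters held at least 1 of the first 3 motifs. A match is a description of the letters and not evidence of binding. The 150 bases before the start are shown for 1 member for each of the first 3 motifs. Each is the highest whose motif lies within these 150 bases, leaving out a member already shown. Only members with a single annotated start, no gene starting head to head and no overlapping exon were considered. The motifs do not mark separate kinds of promoter, and that of Mrpl17 also held the ETS motif, not within the bases shown. Capitals mark the motif as read on the coding strand, which is the reverse complement of the ETS and YY1 motifs as written above.
Mrpl17 (chr7:105811088-105811237, minus strand, NRF1): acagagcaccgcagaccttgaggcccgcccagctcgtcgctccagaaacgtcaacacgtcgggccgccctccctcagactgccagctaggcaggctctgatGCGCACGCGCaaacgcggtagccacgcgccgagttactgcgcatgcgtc
Mrpl52 (chr14:54426759-54426908, plus strand, ETS): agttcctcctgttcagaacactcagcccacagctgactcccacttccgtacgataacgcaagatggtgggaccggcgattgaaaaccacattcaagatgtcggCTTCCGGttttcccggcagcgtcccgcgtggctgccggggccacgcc
Mrpl36 (chr13:73330859-73331008, plus strand, YY1): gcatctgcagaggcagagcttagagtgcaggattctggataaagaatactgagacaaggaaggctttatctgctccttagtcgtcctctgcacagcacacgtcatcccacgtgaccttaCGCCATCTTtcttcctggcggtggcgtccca

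Every member was expressed in every library. The lowest value of any member in any library was 6.07 FPKM and the highest 119 FPKM, and all 76 were at or above 1 FPKM in each of the 12 libraries. The median of the members was 32.2, 33.4, 35.1 and 33.7 FPKM in 186wt, 343wt, 444wt and 456wt, which gave 33.6 ± 1.19 FPKM (SD, n = 4). The 20795 genes whose mean reached 0.1 FPKM had a median of 5.01 FPKM. Of the members, 64 (84.2%) were in the top quartile of these genes, which began at 21.1 FPKM and by its definition held 25% of them. Within single sample numbers, 58, 63, 64 and 63 members were in it. The count depended on which genes were taken as expressed. It was 45 of the 76 members with a minimum mean of 1 FPKM, and 71 with any mean above 0. Together the members held 0.579% of all FPKM of the table.

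The levels of the members differed by 14.1-fold between the highest and the lowest mean. In the mature particle most of these proteins are present in single copy. Between 20 and 60 FPKM lay 57 members (75%). Of the 75 pairs of neighbours in the order of means, 9 were separated in the sense that all 4 sample numbers gave their difference the same sign. In the other pairs the 4 signs were not all the same. Over only 4 values the signs often agree where genes do not differ, so the word describes the order and is not a test.

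**Figure D1:**
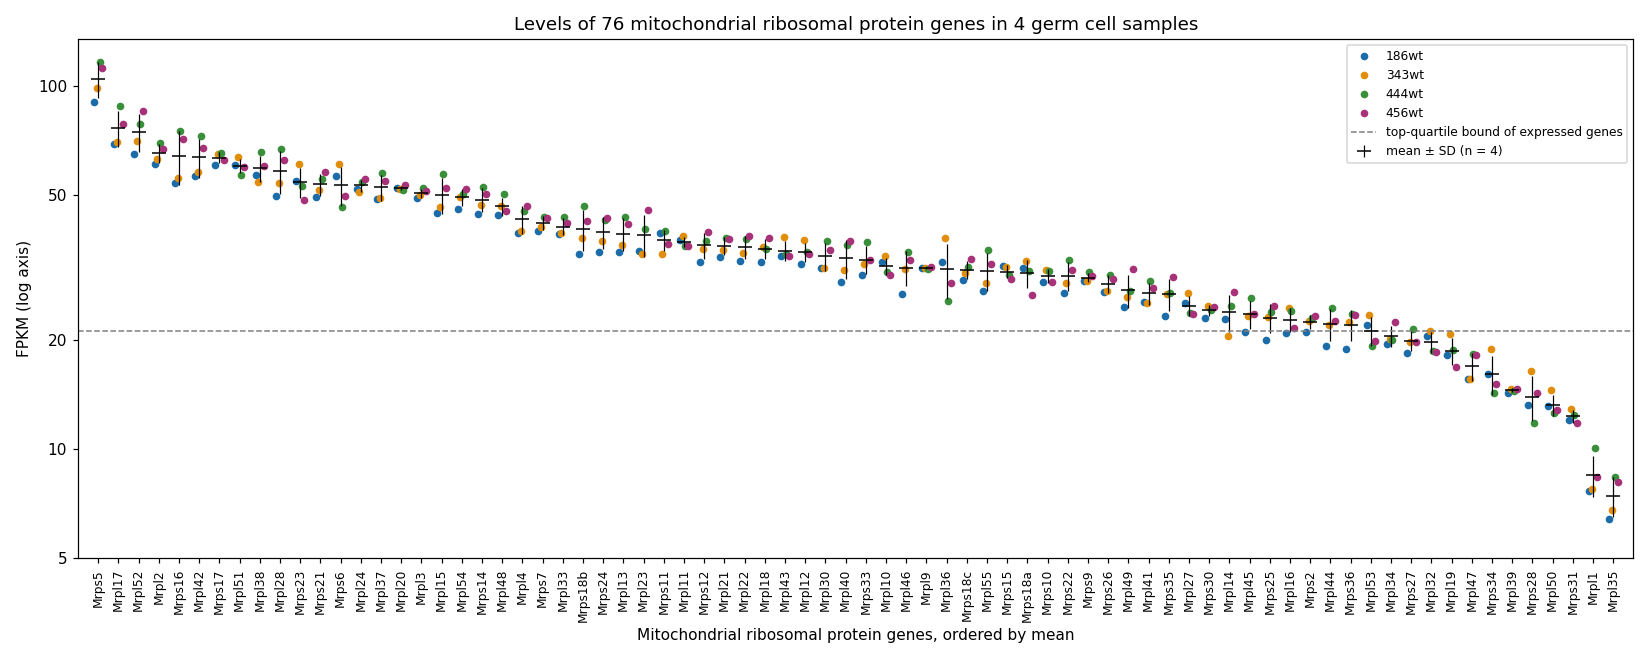
FPKM (log axis) of the 76 mitochondrial ribosomal protein genes in order of their mean. Points are the 4 sample numbers (means of 3 libraries), black crosses the mean ± SD (n = 4), and the dashed line is the lower bound of the top quartile of expressed genes at 21.1 FPKM. Mrps5 stands above and Mrpl1 and Mrpl35 below the rest, and 57 members lie between 20 and 60 FPKM.

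Mrps5 was the highest member. It encodes the counterpart of bacterial S5, a protein of the small subunit near the entry of the mRNA (Ensembl ENSMUSG00000027374, chromosome 2, 127412958 to 127432565, plus strand, NCBI build 37). It measured 94.6, 86.9 and 90.03 FPKM in the 3 libraries of 186wt, 96.2, 103 and 96.4 in 343wt, 112, 119 and 118 in 444wt, and 111, 110.03 and 114 in 456wt, a mean of 104 ± 12.0 FPKM (SD, n = 4). All libraries of 186wt lay below those of 343wt, and all of 343wt below those of the other two numbers, while 444wt and 456wt overlapped. Mrps5 was above Mrpl17 in all 4 sample numbers.

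After Mrps5 came Mrpl17 at 76.4 ± 8.66 FPKM and Mrpl52 at 74.7 ± 8.90 FPKM (SD, n = 4), the first the counterpart of a bacterial protein at the exit of the peptide tunnel and the second a protein of the large subunit that bacteria lack. These 2 were not separated from each other. A group of 4 followed in which no neighbours in the order were separated. It held Mrpl2, whose bacterial counterpart is needed for peptidyl transferase, at 65.1 ± 4.01 FPKM, Mrps16 at 64.1 ± 10.7 FPKM, Mrpl42 at 63.6 ± 7.87 FPKM and Mrps17 at 63.4 ± 2.19 FPKM. Mrpl51, again without a bacterial counterpart, was the eighth at 60.1 ± 2.76 FPKM and lay below Mrps17 in all 4 sample numbers.

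Mrpl35, the counterpart of a small protein of the bacterial large subunit, was the lowest member (ENSMUSG00000052962, chromosome 6, 71762997 to 71773804, minus strand). It measured 6.28, 6.07 and 6.94 FPKM in 186wt, 6.76, 7.10 and 6.55 in 343wt, 7.88, 8.84 and 8.37 in 444wt, and 8.28, 7.56 and 8.48 in 456wt, a mean of 7.43 ± 0.952 FPKM (SD, n = 4). The libraries of 186wt and 343wt overlapped, as did those of 444wt and 456wt, and the first 2 numbers lay below the last 2. Mrpl1, which forms the mobile L1 stalk of the large subunit, was next at 8.46 ± 1.11 FPKM and above Mrpl35 in every sample number.

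Then came Mrps31 at 12.3 ± 0.500 FPKM and Mrpl50 at 13.2 ± 0.884 FPKM, both absent from bacteria and both separated from the next lower member. Mrps28 at 13.9 ± 1.96 FPKM, Mrpl39 at 14.5 ± 0.169 FPKM, Mrps34 at 16.1 ± 1.98 FPKM and Mrpl47 at 16.9 ± 1.52 FPKM were not separated from their neighbours above. Mrpl39 resembles a threonyl-tRNA synthetase, and Mrpl47 is the counterpart of bacterial L29.

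By their place in the particle, 49 members belong to the large subunit (Mrps30 and Mrps18a among them, despite their symbols) and 26 to the small subunit. Mrps36, at 22.01 ± 2.17 FPKM, was left in neither, since the protein of that name belongs to the 2-oxoglutarate dehydrogenase complex. The median was 34.0 FPKM in the large and 32.2 FPKM in the small subunit. When members were divided by the letter of the symbol alone, the medians were 34.8 FPKM for Mrpl and 30.8 FPKM for Mrps. Mrps18a and Mrps18b are relatives of bacterial S18 but do not take its place, and they were counted as without a bacterial counterpart. The 45 members with a bacterial counterpart had a median of 36.3 FPKM, and the 30 without one had 30.2 FPKM. In each of the 4 sample numbers the first of these medians was the higher one, with 32.8 against 27.0 FPKM in 186wt, 35.6 against 28.6 in 343wt, 37.5 against 32.1 in 444wt, and 37.8 against 31.2 in 456wt. The highest class was the small subunit with bacterial counterparts (16 members, 38.5 FPKM) and the lowest the small subunit without (10 members, 27.6 FPKM). The classes overlapped widely, and no test of their difference was made because members are not replicates.

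The sample numbers were compared for every gene by limma on log2(FPKM + 0.1), and p-values were adjusted by the Benjamini-Hochberg method over the same 20795 genes. At an adjusted p under 0.05 in the F-test of the 4 numbers, 57 of the 76 members were called. The background was 58.2% of all genes tested. Since low genes are harder to call, the share among the 9244 genes at least as high as Mrpl35 is set beside it, which was 83.3%. The differences of the members were small. The range between the highest and the lowest number had a median of 0.24 on the log2 scale, against 0.54 over all genes tested and 0.34 over those at least as high as Mrpl35. No member reached a 1.5-fold difference between its highest and lowest sample number, and the coefficient of variation over the 4 numbers was 0.583% to 17.3% with a median of 8.05%.

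Each sample number was then compared with the mean of the other 3 in the same fit. These 4 comparisons share their libraries, so that a low value in one number lifts the difference of the others. In 186wt, 42 members were lower (background 21.9%) and 1 was higher (14.8%), with a median difference of -0.13 on the log2 scale against -0.05 over all genes tested. In 343wt, 15 were lower (25.6%) and 13 higher (14.5%), with medians of -0.04 and -0.10. In 444wt, 32 were higher (26.5%) and 5 lower (17.8%), with medians of 0.08 and 0.08. In 456wt, 23 were higher (22.9%) and 6 lower (13.6%), with medians of 0.06 and 0.05. Some of the counts rested on 1 library. Without replicate 3 of 456wt, 13 members were higher (background under the same omission 19%) and 3 lower (11.7%) in that number. Without replicate 2 of 343wt, 7 were higher in 343wt (12.7%). As shares of all members, these counts lay below the background. In 444wt, 3 were lower without its replicate 2 and 8 without its replicate 3, and the 1 member higher in 186wt became 0 to 2 on leaving out single libraries.

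The split between higher and lower moved with the scaling. When libraries were rescaled by the median ratio of their genes, as DESeq2 does it, 29 members were lower (background under the same rescaling 17.4%) and 3 higher (17.9%) in 186wt, 5 lower (18.1%) and 23 higher (19.4%) in 343wt, 16 higher (19.4%) and 13 lower (22.2%) in 444wt, and 14 higher (18.2%) and 10 lower (17.3%) in 456wt. In 444wt and 456wt these counts were near the background. The members' median then became -0.09, 0.03, 0.02 and 0.02 in 186wt, 343wt, 444wt and 456wt, against -0.01, -0.03, 0.02 and 0.01 over all genes tested. The rescaling shifted all genes of a number together, which by itself turned the sign of the members' median in 343wt, and the members' median stayed above that of all genes there and below it in 186wt. By sample number alone, on the deposited scale, 48 of 76 members had their lowest value in 186wt and 34 had their highest in 444wt. The share of all genes with these lowest and highest numbers was not counted. Before rescaling, the medians of all genes tested were -0.05 in 186wt and 0.08 in 444wt, so the counts are not particular to the members. Mrps15 was the single member highest in 186wt.

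**Figure D2:**
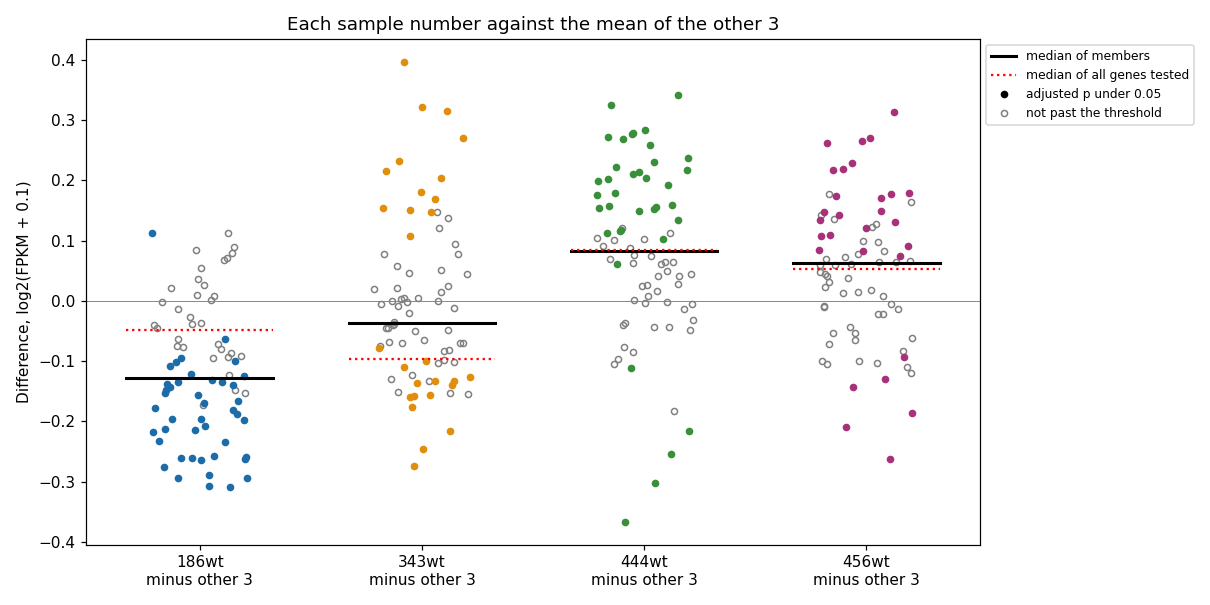
Difference of each sample number from the mean of the other 3 (log2 scale of FPKM + 0.1) for the 76 members. Filled points have an adjusted p under 0.05 (limma), open points do not, the black line is the median of the members and the dotted line that of all genes tested. In 186wt most filled points are below 0 (42 against 1), and in 444wt most are above (32 against 5).

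Several members with the smallest p were low in 186wt and 343wt and high in 444wt and 456wt. Mrps16, a small subunit protein kept from bacteria, had the largest such difference among the 8 members of smallest F-test p (ENSMUSG00000049960, chromosome 14, 21210453 to 21212777, minus strand). It measured 57.9, 53.0 and 51.2 FPKM in 186wt, 54.9, 54.9 and 57.6 in 343wt, 73.8, 77.8 and 73.8 in 444wt, and 70.8, 76.1 and 67.7 in 456wt. The 6 libraries of the first 2 numbers lay below the 6 of the last 2, and 186wt overlapped with 343wt, as 444wt did with 456wt. The difference of 186wt from the other 3 was -0.31 ± 0.0411 on the log2 scale (SE, limma, adjusted p = 0.000112), and that of 444wt was 0.33 ± 0.0411 (adjusted p = 5.59e-05).

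Mrpl28 had the smallest p of the F-test of all members, 1.95e-06 after adjustment (ENSMUSG00000024181, chromosome 17, 26260465 to 26263558, plus strand). This large subunit protein measured 47.8, 50.8 and 50.2 FPKM in 186wt, 53.9, 53.1 and 54.6 in 343wt, 66.4, 66.8 and 67.2 in 444wt, and 62.2, 65.5 and 59.6 in 456wt. None of the 4 sample numbers overlapped with another, in the order 186wt, 343wt, 456wt and 444wt. It was 0.28 ± 0.0272 higher in 444wt than in the other 3 (log2 scale, SE, limma, adjusted p = 7.02e-06).

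Other members with this pattern and among the smallest p were Mrpl42 (adjusted p of the limma F-test 3.1e-05), Mrpl30 (1.84e-05), Mrpl15 (2.66e-05) and Mrps5 (2.04e-05). Mrpl15, a large subunit protein kept from bacteria, was 44.6, 46.5, 57.1 and 52.3 FPKM in 186wt, 343wt, 444wt and 456wt. Mrpl30 had the same value, 31.5 FPKM, in 186wt and 343wt, and 37.5 and 35.4 FPKM in the other two. The high members Mrpl17 and Mrpl52 differed in where they peaked, Mrpl17 at 87.8 FPKM in 444wt and Mrpl52 at 85.3 FPKM in 456wt. Of the low members, Mrpl35 was lower in 186wt by -0.26 ± 0.0573 on the log2 scale (limma, adjusted p = 0.00365), and Mrpl1 was higher in 444wt by 0.34 ± 0.0564 (adjusted p = 0.00042), the largest difference upwards of any member in that number.

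A smaller set went the other way, high in 343wt and low in 444wt. Mrpl36, a short zinc-binding protein of the large subunit whose promoter is shown above, had the largest range of all members (ENSMUSG00000021607, chromosome 13, 73468457 to 73469623, plus strand). It measured 30.7, 34.2 and 33.5 FPKM in 186wt, 40.2, 38.0 and 35.9 in 343wt, 25.3, 24.8 and 26.5 in 444wt, and 29.3, 29.0 and 27.7 in 456wt. The 4 numbers did not overlap, and from low to high they ran 444wt, 456wt, 186wt and 343wt. The highest number was 1.49-fold above the lowest. Mrpl36 was 0.40 ± 0.041 higher in 343wt (log2 scale, SE, limma, adjusted p = 1.34e-05) and lower in 444wt by -0.37 ± 0.041 (adjusted p = 2.14e-05).

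Mrps6, a small subunit protein that binds the rRNA beside S18 in bacteria, did the same (ENSMUSG00000039680, chromosome 16, 92058515 to 92112472, plus strand). It measured 53.9, 59.0 and 56.0 FPKM in 186wt, 59.6, 61.5 and 62.0 in 343wt, 45.4, 45.8 and 48.3 in 444wt, and 47.8, 51.1 and 49.9 in 456wt. Its 343wt libraries were above all others, and 444wt and 456wt overlapped at the low end. The difference was 0.27 ± 0.031 in 343wt (limma, adjusted p = 3.1e-05) and -0.25 ± 0.031 in 444wt (adjusted p = 4.29e-05). Mrps6 was also the single member called higher in 186wt, by 0.11 ± 0.031 (adjusted p = 0.0135), and its exon overlaps one of Slc5a3, a myo-inositol transporter on the same strand, which was at 8.72, 6.55, 7.51 and 6.94 FPKM in 186wt, 343wt, 444wt and 456wt.

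Mrps28 had the second largest range and measured 14.2, 12.6 and 12.9 FPKM in 186wt, 17.0, 13.8 and 18.4 in 343wt, 11.5, 11.5 and 12.3 in 444wt, and 15.1, 13.5 and 14.2 in 456wt. Its libraries of 343wt were spread widely, and 1 of them lay within the ranges of 186wt and 456wt. Mrps34 measured 16.05, 18.8, 14.3 and 15.1 FPKM in 186wt, 343wt, 444wt and 456wt and shares exon sequence with Mapk8ip3 on the opposite strand, at 47.6 FPKM, and with Nme3 on the same strand, at 11.7 FPKM. Mrpl51 was called higher in 343wt and lower in 444wt with an adjusted p of 0.049 and 0.0396 (limma), but its F-test did not pass (adjusted p = 0.0678).

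Altogether 5 members were lower in 444wt, namely Mrpl36, Mrps28, Mrps6, Mrps34 and Mrpl51. The 13 members higher in 343wt were these, a result that shares its libraries with the former, and Mrps23, Mrps18a, Mrpl27, Mrpl43, Mrpl53, Mrpl19, Mrpl12 and Mrpl50, the latter with differences of 0.15 to 0.23 on the log2 scale. Mrpl12, which forms the flexible stalk of the large subunit, was 32.4, 37.6, 34.9 and 34.4 FPKM in 186wt, 343wt, 444wt and 456wt, and thus low in 186wt as well as high in 343wt. The 6 members lower in 456wt were Mrps18a, Mrps23, Mrpl19, Mrpl36, Mrps6 and Mrps15. Mrps23, a small subunit protein without a bacterial counterpart, was 54.6, 60.9, 52.9 and 48.5 FPKM in the 4 numbers.

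**Figure D3:**
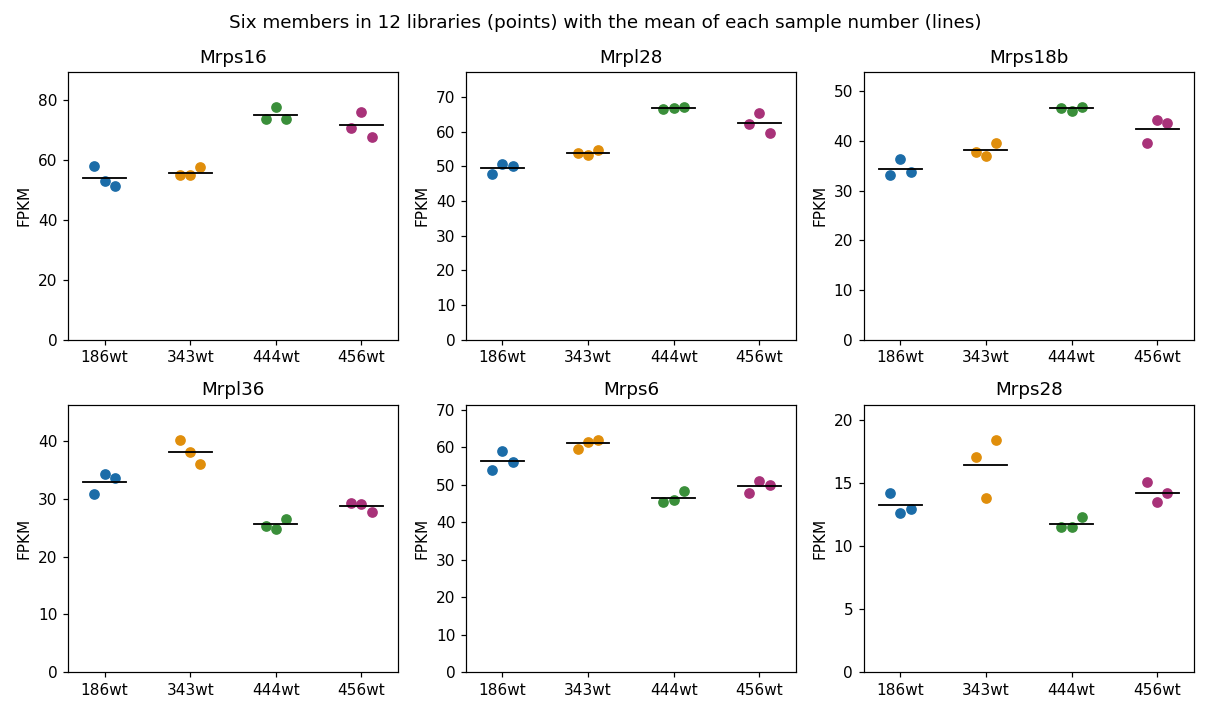
FPKM of 6 members in the 12 libraries. Points are single libraries, lines the mean of the 3 libraries of a sample number, and each axis starts at 0. Mrps16, Mrpl28 and Mrps18b (top row) were highest in 444wt, and Mrpl36, Mrps6 and Mrps28 (bottom row) were highest in 343wt and lowest in 444wt.

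The mammalian mitochondrial ribosome has 3 relatives of bacterial S18, encoded by Mrps18a, Mrps18b and Mrps18c, of which Mrps18c takes the place of S18, Mrps18b sits elsewhere in the small subunit and Mrps18a is in the large subunit. Their means were 30.5 ± 2.78, 40.4 ± 5.24 and 31.2 ± 1.73 FPKM (SD, n = 4). Mrps18b measured 34.4, 38.1, 46.5 and 42.5 FPKM in 186wt, 343wt, 444wt and 456wt and was lower in 186wt, with -0.29 ± 0.0374 in 186wt (log2 scale, SE, limma, adjusted p = 8.06e-05). Mrps18a measured 31.4, 32.9, 31.0 and 26.5 FPKM and was lower in 456wt by -0.26 ± 0.0491 (adjusted p = 0.00135). Mrps18c measured 29.3, 30.5, 31.6 and 33.4 FPKM and was higher in 456wt by 0.13 ± 0.0366 (adjusted p = 0.0152). Mrps18b was higher in 456wt as well, by 0.11 ± 0.0374 (adjusted p = 0.04286), so that all 3 relatives were called in 456wt, Mrps18a lower and the other two higher.

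Mrpl46 and Mrps11 are transcribed from opposite strands and overlap at an exon, so reads of one may have been counted for the other. Mrpl46 was 26.8, 31.4, 34.8 and 33.2 FPKM in 186wt, 343wt, 444wt and 456wt, lower in 186wt by -0.31 ± 0.0368 on the log2 scale (limma, adjusted p = 4.85e-05). Mrps11 was 39.3, 34.5, 39.9 and 36.6 FPKM, with its low value in 343wt (-0.16 ± 0.054, adjusted p = 0.0357). The 2 genes thus had their lowest value in different sample numbers.

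The members that varied least were Mrpl9, Mrpl39 and Mrpl20. Mrpl9, the counterpart of an elongated protein of the bacterial large subunit, was 31.5, 31.6, 31.3 and 31.8 FPKM in 186wt, 343wt, 444wt and 456wt, and its differences of -0.01 to 0.01 on the log2 scale were below their SE of 0.0226. Mrpl20 was 52.4, 52.1, 51.6 and 53.4 FPKM, and Mrpl39 14.3, 14.6, 14.5 and 14.7 FPKM.

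By class, 38 of the 49 large subunit members and 18 of the 26 small subunit members passed the F-test. It called 58.2% of all genes tested and 83.3% of those at least as high as Mrpl35. In 186wt, 28 of the 49 were lower and 0 higher, and 13 of the 26 were lower and 1 higher (limma, adjusted p under 0.05). At an unadjusted p under 0.05, 3 members of any class were higher. Over all genes tested, 21.9% were lower and 14.8% higher in 186wt. In 444wt, 23 of the 49 were higher and 2 lower, and 9 of the 26 were higher and 3 lower. The background in 444wt was 26.5% higher and 17.8% lower. Both subunits held members of both patterns, and the difference between the subunits was not tested.

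The other parts of mitochondrial translation were described by lists of genes in the same fit. The F-test called 58.2% of all genes tested and 83.3% of those at least as high as Mrpl35. A share of a list near or below these is not particular to that list. Of 7 proteins of the particle with other symbols, 4 passed the F-test. Their highest gene was Dap3, which encodes a GTP-binding protein of the small subunit, at 104.9, 104.6, 104.1 and 100.6 FPKM in 186wt, 343wt, 444wt and 456wt, a level like that of Mrps5. Dap3 did not pass the F-test (adjusted p = 0.4). Their lowest was Mrp63 at 6.43 FPKM, and their smallest p that of Ptcd3, a small subunit protein, at 26.7, 26.2, 30.3 and 28.6 FPKM (adjusted p = 0.000316). Of 15 translation factors, with a median of 12.9 FPKM, 6 passed. Tufm, the elongation factor that brings tRNAs to the ribosome, was their highest at 58.3 ± 6.93 FPKM, with 50.4, 54.5, 64.3 and 63.9 FPKM in the 4 numbers and the smallest p, and Mtrf1 their lowest at 3.44 FPKM.

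Factors of mitoribosome assembly and rRNA modification had a median of 13.6 FPKM, and 12 of 22 passed the F-test. Of the 22, 10 were higher in 444wt (background 26.5%) and 8 lower in 343wt (25.6%). The RNA helicase Dhx30 was the highest at 50.9 ± 4.94 FPKM, and a row of the rRNA methyltransferase Nsun4 the lowest at 0.185 FPKM, a symbol that stands in 2 rows of the table. Mterfd1, needed for assembly of the particle, had the smallest p and was 24.9, 23.7, 29.3 and 22.5 FPKM. In transcription and mRNA stability, 5 of 9 passed, from Mterf at 2.84 FPKM to the RNA-binding protein Grsf1 at 63.4 FPKM, with the smallest p for Lrpprc, which stabilises mitochondrial mRNAs, at 35.1, 37.8, 43.4 and 41.5 FPKM. Of 17 mitochondrial tRNA synthetases, with a median of 16.6 FPKM, 13 passed. Lars2 was the highest at 192, 157, 201 and 204 FPKM and had the smallest p, and Wars2 was the lowest at 2.503 FPKM.

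The mRNAs that the particle translates moved in another order. All 13 mitochondrially encoded mRNAs were higher in 186wt (background 14.8%) and all 13 lower in 456wt (13.6%). Their medians were 3497, 3139, 3009 and 2639 FPKM in 186wt, 343wt, 444wt and 456wt, the values of mt-Nd1, among those of smallest p. The 13 mRNAs ranged from mt-Nd4l at 1028 FPKM to mt-Co1 at 8258 FPKM and held 10.3% of all FPKM. The members were lowest where these were highest. The 2 mitochondrial rRNAs, at 129 and 185 FPKM, both passed the F-test, and these are values after mRNA had been taken from the total RNA.

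Of 86 nuclear subunits of oxidative phosphorylation, with a median of 71.7 FPKM, 71 passed. Of the 86, 47 were lower in 186wt (background 21.9%) and 50 higher in 456wt (22.9%). They ran from Cox8b, a muscle isoform, at 0.108 FPKM to the ATP synthase subunit Atp5b at 407 FPKM, with Atp5f1 among the smallest p. Cytosolic ribosomal proteins had a median of 397 FPKM. Of these 86 genes 84 passed. Lower were 78 in 186wt (background 21.9%) and 62 in 343wt (25.6%), and higher were 72 in 444wt (26.5%) and 75 in 456wt (22.9%). The median differences in 186wt, 343wt, 444wt and 456wt were -0.30, -0.11, 0.22 and 0.20 on the log2 scale. The genes ranged from Rpl3l, a muscle gene, at 1.502 FPKM to Rpl13a at 1111 FPKM, with Rpl8 among the smallest p. The members' medians of -0.13, -0.04, 0.08 and 0.06 had the same signs and were smaller. The medians of all genes tested, -0.05, -0.10, 0.08 and 0.05, had these signs too, so the shared signs are not particular to the 2 lists. After rescaling by the median ratio the members' median in 343wt was 0.03. The difference between the lists was not tested. Of 9 regulators of nuclear mitochondrial genes 5 passed, from Ppargc1b at 0.345 FPKM to Pprc1, a coactivator of respiratory genes, at 63.5 FPKM, the latter with the smallest p and 58.9, 53.9, 76.2 and 65.1 FPKM in the 4 numbers.

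**Figure D4:**
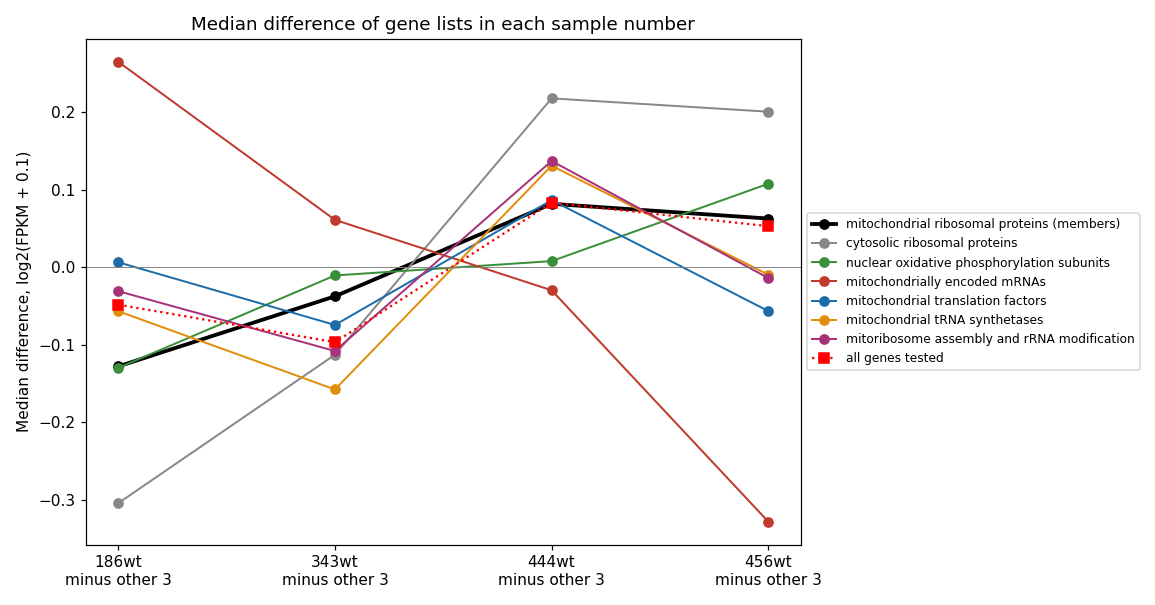
Median difference of gene lists (log2 scale of FPKM + 0.1) in each sample number from the mean of the other 3. Lines join the medians of 1 list, and the dotted line is the median of all genes tested. The members (black) ran from -0.13 in 186wt to 0.08 in 444wt, the cytosolic ribosomal proteins from -0.30 to 0.22, and the mitochondrially encoded mRNAs in the other direction.

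Cell type markers also differed between the sample numbers. The median of the 9 spermatogonial markers was 22.8, 26.1, 36.1 and 31.6 FPKM in 186wt, 343wt, 444wt and 456wt. On the deposited scale this was the same order as the members' medians, and 7 of the 9 markers were lowest in 186wt and 7 highest in 444wt. After rescaling by the median ratio the members' median differences were -0.09, 0.03, 0.02 and 0.02, with the highest in 343wt. The 9 Sertoli cell markers had medians of 127, 123, 88.2 and 84.2 FPKM and summed to 4370, 4498, 2526 and 2695 FPKM. Of the 13 markers of meiotic prophase, 11 were highest in 444wt. The 6 peritubular myoid markers summed to 553, 261, 695 and 1161 FPKM and the 7 Leydig cell markers to 59.4, 120.2, 16.4 and 67.1 FPKM. Macrophage markers (7 of 7 found) summed to 9.81 to 41.7 FPKM, endothelial markers (6 of 6) to 17.0 to 39.1 FPKM and red blood cell markers (4 of 4) to 21.5 to 124 FPKM. Their part in the differences of the members was not tested, and in such bulk RNA fewer cells of a type and less RNA per cell cannot be told apart.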

How the data were processed

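The 12 RNA-seq libraries were analysed, and the ChIP-seq, Affinity-seq and input samples of the series were not analysed here. The authors used Bowtie 0.12.9 to place reads of 100 bp on transcripts of NCBI build 37, dropped any read with 2 or more mismatches, and made the deposited FPKM with RSEM 1.2.8 (fragment length 280 ± 50 bp), rounded to 2 decimals. RSEM divides reads among transcripts they match equally well. The libraries were made from mRNA by Illumina protocols with random priming, and a strand setting is not given in the sources used here.

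Columns were assigned to samples by name. For tests between sample numbers limma 3.58.1 (R 4.3.3; lmFit, eBayes with trend) was fitted to log2(FPKM + 0.1) of all genes whose mean reached 0.1 FPKM. On this scale changes of low genes are understated. Medians, levels and plots were made in Python 3.11.15 (numpy 2.4.6, pandas 2.3.3, scipy 1.17.1, matplotlib 3.10.9). Positions are from GENCODE M1 on NCBI build 37. The deposited FPKM come without counts, so depth was estimated from the FPKM steps of 45 low genes (95% interval of the slope for the first library 12.6 to 14.9 M (mega) fragments), and the errors given from it cover counting only.

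Members, gene lists and tests were chosen with earlier results of these data known. Members named in full were the 8 highest, the 8 lowest, the 8 with the smallest p, the 5 with the largest range and those called against the majority of a contrast. The highest gene, the lowest and the one with the smallest p were named from each list. Mrpl9, Mrpl20, Mrps18c, Mrps11, Mrpl46, the named neighbouring genes and the promoters shown were chosen after their values were seen. Of the symbols listed, Rhox5 and Slirp were not found. Alternatives were other pseudocounts, filters and scalings, robust fits, a replicate block and leaving out libraries.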

Additional observations from a re-analysis of the deposited data

Results flagged for a closer look

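Among 98 values compared over the 4 sample numbers (76 members and 22 list medians), 2 had a sample number whose gap to the nearest other exceeded Dixon's critical value of 0.829 for 4 samples, where chance gives about 1 in 20, or 4.9. Mrpl43, a large subunit protein, was at 38.4 FPKM in 343wt, and the other 3 numbers lay between 33.9 and 34.4 FPKM. Its 343wt libraries measured 40.3, 39.4 and 35.5 FPKM, and an exon of Mrpl43 overlaps Peo1, the mitochondrial DNA helicase gene on the opposite strand, at 11.1 FPKM. The median of the mitoribosome assembly and rRNA modification list was 14.3 FPKM in 444wt, and the other 3 numbers lay between 13.2 and 13.4 FPKM.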

How the results depend on the processing

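The count of members passing the F-test was 57 in the main fit (background 58.2%). It stayed 57 with a pseudocount of 1 (58.4%) or 0.01 (57.6%) and with robust eBayes (58.3%). It was 60 with a minimum mean of 1 FPKM (77.6%) and 52 without a filter (43.6%). Rescaling to TPM (each library scaled to the same sum) gave 54 (57.4%), and rescaling by the median ratio gave 49 (56.1%). Leaving out 1 sample number gave 46 to 48 (47.7% to 54.3%), and leaving out 1 library 47 to 56 (55.0% to 56.7%). Rescaling by the median ratio gave 3 members higher (background 17.9%) and 29 lower (17.4%) in 186wt, and 23 higher (19.4%) and 5 lower (18.1%) in 343wt. It gave 16 higher (19.4%) and 13 lower (22.2%) in 444wt, and 14 higher (18.2%) and 10 lower (17.3%) in 456wt. The single member higher in 186wt became 2 with a minimum mean of 1 FPKM (background 21.3%) and 3 in TPM (15.6%). In TPM the median level was 69.2. Leaving out each library in turn gave 0 to 2 higher (background 12.7% to 14.6%) and 30 to 43 lower members (18.6% to 21.3%) in 186wt. In 343wt it gave 7 to 14 higher (12.6% to 14.4%) and 12 to 19 lower (21.7% to 25.3%). In 444wt it gave 27 to 33 higher (22.5% to 26.2%) and 3 to 8 lower (15.9% to 17.6%). In 456wt it gave 13 to 24 higher (18.8% to 22.7%) and 3 to 7 lower (11.7% to 13.3%). In 186wt, 0 were higher without its replicate 2, and 2 without its replicate 1, replicate 1 of 343wt, or replicates 1 or 3 of 444wt. The causes of these shifts were not tested. Deviations of libraries with the same library number (1 to 3) correlated at -0.06 to 0.13 over 18 pairs. Those of libraries with different library numbers correlated at -0.13 to 0.08 over 36 pairs. The ranges overlapped, and the main fit did not pair libraries by number. The fit with the replicate number as a block called 57 members (background 56.6%). It gave 1 higher (14.4%) and 42 lower (21.0%) in 186wt, and 13 higher (14.3%) and 18 lower (24.9%) in 343wt. In 444wt it gave 33 higher (26.0%) and 5 lower (17.5%), and in 456wt 23 higher (22.4%) and 6 lower (13.3%). For the ranges and differences of single members named, 1879 comparisons with an alternative kept their call, 153 no longer passed the threshold and 8 newly passed it. Differences were included only where they passed in the main fit. Of them 0 reversed in sign, and a range cannot reverse.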
